A study of Mus musculus with 88 samples.

Results

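The endosomal sorting proteins examined here were the protein groups of the trypsin data whose first gene name began with Vps, Chmp or Snx or was Hgs, Stam, Stam2, Tsg101 or Snf8. There were 60 of them among 5899 protein groups, and 1 more by name, Chmp1b2, was left out as marked in the deposited table. They comprised the retromer trimer (Vps26a, Vps26b, Vps29 and Vps35, 4 groups) and the 6 sorting nexins that work with it (Snx1, Snx2, Snx3, Snx5, Snx6 and Snx27). There were 8 proteins listed with the HOPS and CORVET tethers, 3 subunits of ESCRT-0, 8 of ESCRT-I and ESCRT-II, 9 of ESCRT-III and the 2 Vps4 ATPases. The rest were 2 subunits of the GARP tether, 3 Vps13 proteins, Vps45 and 14 other sorting nexins. The HOPS and CORVET counts and medians below include Vps33b, a paralog of the subunit Vps33a that is placed there by this list alone. The rule used names alone and no measured value.

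The cells were dendritic cells grown with GM-CSF from bone marrow of female C57BL/6J mice and, at day 9, either given 100 ng per ml of ultrapure rough lipopolysaccharide (LPS) of E. coli K12, a bacterial wall component sensed by Toll-like receptor 4, or left without stimulus as mock. All cells had been grown in medium-heavy amino acids (M, Arg6 and Lys4), were pooled, and were moved to heavy amino acids (H, Arg10 and Lys8) at 0 h. Both forms were measured by mass spectrometry against an unlabelled mix of cells (L) added to each run. There were 42 runs, 2 at 0 h and 2 for each treatment at 10 later times (0.5 h, hourly from 1 to 6 h, then 9, 12 and 24 h), in 21 groups, and each run gave the M and the H channel as separate samples. The other 4 samples were unlabelled 0 h cells digested with AspN or LysN. M/L is the protein made before the switch (pre-existing), H/L the protein made after it that was still present (new), and their sum the total. Every ratio was divided by a factor of its run, so that a scaled total of 1 is the typical protein of that run. M/L peptide pairs numbered 68083 to 109064 per run, with a median of 89439, and 43 to 52 members had an H/L ratio in it (median 47). Nothing in the labels ties the replicates to separate cultures, and p-values then measure only the spread among these runs, which can be technical. The stated times of harvest end at 12 h, and the sources used here do not give how the 24 h cells were handled.

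Endosomes sort membrane proteins either back to the cell surface and the Golgi or onward to the lysosome. Retromer and the sorting nexins, which bind phosphoinositide lipids and bend membrane into tubules, carry cargo back, while the ESCRT complexes gather ubiquitin-tagged receptors and pinch them into vesicles inside the endosome, with ESCRT-III filaments doing the cutting and Vps4 taking them apart. CORVET and HOPS tether early and late endosomes before they fuse with each other or with lysosomes, and dendritic cells use these routes to move pattern recognition receptors and MHC class II.

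Of the members, 50 had a level at 0 h in both trypsin runs. It is given as iBAQ (intensity per theoretical peptide, which allows proteins to be set side by side) in ppm of the sum over all groups. The sorting nexin partners of retromer were the most abundant set, with a median level of 383 ppm against 77.4 ppm for the retromer trimer, 113 ppm for ESCRT-III, 12.2 ppm for ESCRT-I and ESCRT-II, 8.53 ppm for ESCRT-0 and 4.89 ppm for HOPS and CORVET. The median level was 15.0 ppm over these 50 members. It was 6.90 ppm over all 5172 proteins with a value in 1 or both runs, so the medians do not rest on the same rule. At the top stood the membrane-bending Snx2 at 738 ± 103 ppm (SD, n = 2), Snx5 at 622 ± 11.2 ppm and the retromer adaptor Snx3 at 509 ± 54.1 ppm. These 3 ran in that order in both trypsin replicates. Then came Chmp4b, the main filament subunit of ESCRT-III, at 349 ± 35.0 ppm and Snx1 at 257 ± 1.49 ppm. The order depended on the digest. With AspN the means were 565 ppm for Snx3, 471 ppm for Vps29, 331 ppm for Snx5 and 284 ppm for Snx2. With LysN they were 600 ppm for Snx2, 566 ppm for Snx5, 524 ppm for Vps29 and 385 ppm for Snx3.

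Within the retromer trimer the arrestin-like subunits differed, with Vps26a at 31.2 ± 1.54 ppm and its paralog Vps26b at 6.76 ± 2.40 ppm (n = 2). The scaffold Vps35 was at 124 ± 22.9 ppm and the small subunit Vps29 at 204 ± 24.2 ppm. Of the ATPases that dismantle ESCRT-III, Vps4b was at 77.7 ppm and Vps4a at 3.01 ppm. The lowest level among the 50 was that of the CORVET subunit Vps8, at 0.367 ppm. Depth differed between members. The number of peptide pairs behind H/L late had a median of 40 for Vps35 and 26 for Chmp4b. It was 5.5 for the HOPS subunit Vps39 and 4 for the ESCRT-I subunit Vps37c.

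**Figure D1:**
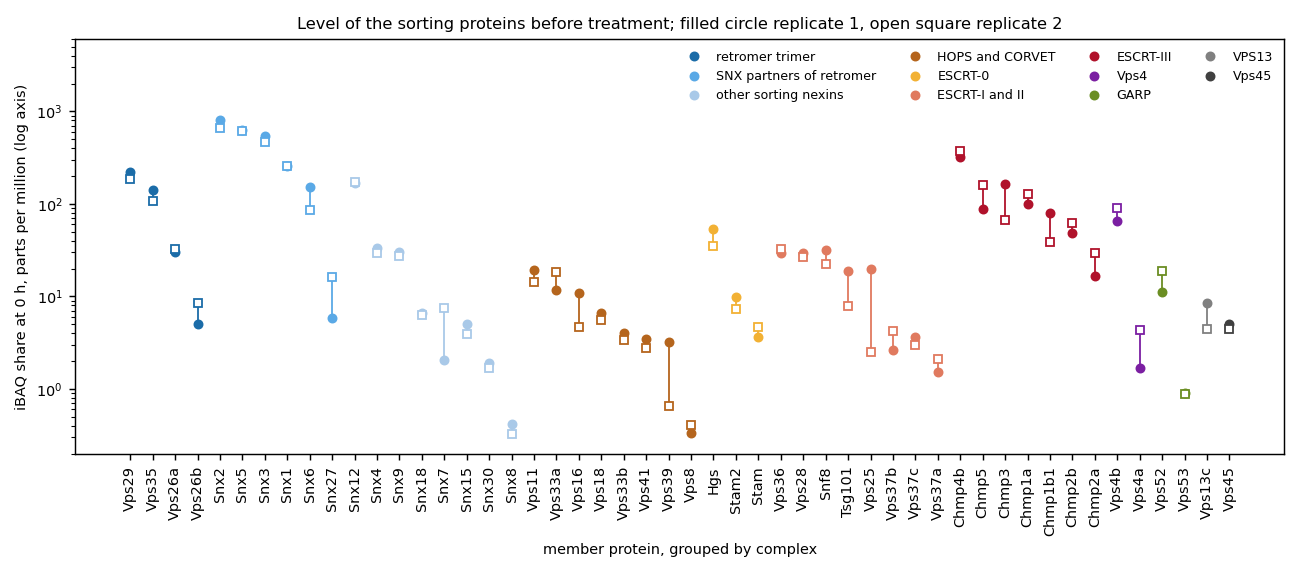
Level of the endosomal sorting proteins at 0 h, in iBAQ ppm on a log axis; filled circles are replicate 1, open squares replicate 2, and each column is a protein, coloured and grouped by complex. The sorting nexin partners of retromer and ESCRT-III lie toward the high end (Snx2 at 738 ppm), HOPS and CORVET toward the low end (median 4.89 ppm).

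The first comparison was LPS against mock in new protein late, the mean over 6, 9 and 12 h with 6 samples per arm, tested with limma and called at an adjusted p under 0.05. The ESCRT-III filament subunit Chmp4b rose by 1.47 ± 0.16 on the log2 scale (SE, a fold of 2.76, limma adjusted p = 1.98e-07). The ATPase Vps4b rose by 0.60 ± 0.12 (fold 1.51, adjusted p = 0.0012). These were the 2 members called of 44 tested, both higher. Over all groups 12.3% were called, 408 of 3316, and 350 of those were higher; with the deposited normalised ratios 130 of 559 calls were higher and the median of all groups moved from 0.03 to -0.48. The members' median was 0.01. In bulk samples, a change in the number of cells of a type and a change in protein per cell cannot be told apart.

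New Chmp4b had a scaled H/L of 0.148, 0.314 and 0.495 late after LPS (lowest, median and highest of 6 samples) and of 0.0687, 0.110 and 0.152 in mock cells. In each of the 6 pairs matched on time and replicate number LPS was the higher, and the pooled ranges touched because the earliest LPS values lay near the latest mock values. By time, the means were 0.157 ± 0.0124 after LPS and 0.0698 ± 0.00153 in mock at 6 h (SD, n = 2 each), 0.314 ± 0.0248 and 0.111 ± 0.0197 at 9 h, and 0.451 ± 0.0617 and 0.138 ± 0.0197 at 12 h. Up to 4 h the arms had been close, with 0.0873 ± 0.00755 after LPS and 0.0755 ± 0.00452 in mock. At 12 h the heavy form made up 48.8% ± 0.653 of Chmp4b after LPS against 22.7% ± 1.97 in mock cells. Its call held in the 9 alternative settings that gave it a value (0.84 to 1.63), and with H/L at 0 h subtracted it had too few values to be tested.

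Vps4b had a scaled H/L of 0.158, 0.254 and 0.352 late after LPS and of 0.105, 0.154 and 0.217 in mock, with LPS higher in 6 of 6 pairs and ranges that overlapped. It was at 0.0879 ± 0.00627 at 0 h and at 0.330 ± 0.0303 after LPS and 0.210 ± 0.00891 in mock at 12 h (SD, n = 2). The Vps4b call ended without a run factor (0.76), from summed intensities (0.49), without replicate 1 (0.61) and without replicate 2 (0.58), and the direction turned with the deposited normalised ratios (-0.17), while it held with H/L at 0 h subtracted (1.21).

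The ESCRT-I subunit Vps37c came next, at 0.80 ± 0.27 (limma adjusted p = 0.0668). Its scaled H/L was 0.250, 0.327 and 0.450 in the 6 LPS samples and 0.152, 0.194 and 0.267 in the 5 mock samples that had a value, higher after LPS in 5 of 5 pairs with overlapping ranges. With the replicate number as a block it was called at 0.88. Of the 18 ESCRT and Vps4 proteins tested 12 lay above 0, where 1779 of 3316 did over all groups. The median of the 18 was 0.09 (-0.01 with M and H centred separately and -0.38 with the normalised ratios). Within ESCRT-III the lowest was Chmp3 at -0.15, within ESCRT-I and ESCRT-II it was the ubiquitin-binding Tsg101 at -0.08. In ESCRT-0, which captures ubiquitin-tagged cargo, Stam2 was at 0.55 and Hgs at 0.17, and neither passed. The second ATPase, Vps4a, was at -0.20.

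Most HOPS and CORVET subunits lay on the other side of 0. Of 7 tested 1 was above 0, against 1779 of 3316 over all groups, and the median of the 7 was -0.48. That median was below 0 under each scaling tried (-0.32 without a run factor to -1.04 with the normalised ratios, against all-group medians of 0.20 and -0.48). Leaving out the run factor or centring M and H separately shifts all groups nearly alike, so these settings add no support. No subunit passed limma's test and 0 had an unadjusted p under 0.05. Vps39, which binds Rab7 for HOPS, was lowest at -0.85 ± 0.45 (adjusted p = 0.328), with a scaled H/L of 0.0286, 0.0869 and 0.160 after LPS and 0.0813, 0.148 and 0.245 in mock. LPS was the lower in each of 6 pairs, and the ranges overlapped. The core subunit Vps16 was highest at 0.01. With the normalised ratios 3 subunits were called lower (Vps39 at -1.51, Vps41 at -1.04, and Vps11).

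The retromer trimer lay near 0. It spanned -0.12 (Vps26a) to 0.06 (Vps29), 1 of 4 above 0, and none was called (0 at an unadjusted p under 0.05). New Vps35 was at 0.0715, 0.107 and 0.137 after LPS and 0.0804, 0.121 and 0.148 in mock, a change of -0.10 ± 0.19 with a 95% interval from -0.50 to 0.30. Vps29 was at 0.104, 0.138 and 0.156 against 0.0937, 0.133 and 0.145, with an interval of the change from -0.21 to 0.33. In both the arms overlapped almost fully. Vps26a was at 0.153, 0.180 and 0.230 after LPS against 0.157, 0.194 and 0.292 in mock. Its H share in mock at 12 h (18.6%) was no higher than at 0 h (19.5%), which limits what its late values can show. Vps26b was the most scattered, at 0.0896, 0.249 and 0.584 after LPS and 0.146, 0.231 and 0.569 in mock, and its interval ran from -0.97 to 0.91. The sorting nexin partners ranged from -0.27 for the PDZ-domain protein Snx27 to 0.25 for Snx3 (3 of 6 above 0). The other sorting nexins ranged from -0.38 (Snx15) to 0.70 (Snx18, which takes part in endocytosis), with 0 of all 12 sorting nexins tested called, and 0 at an unadjusted p under 0.05.

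The remaining sets completed the picture, with the lipid transfer protein Vps13c at -0.47, the GARP subunit Vps52 at 0.15 and Vps45, a regulator of SNARE fusion, at 0.01, none called. The 16 members with too few H/L values to test were Chmp6, Chmp7, Snx8, Snx10, Snx16, Snx17, Snx20, Snx24, Snx29, Snx30, Stam, Vps8, Vps13a, Vps13b, Vps37a and Vps53. Snx16 had no ratio in any run.

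**Figure D2:**
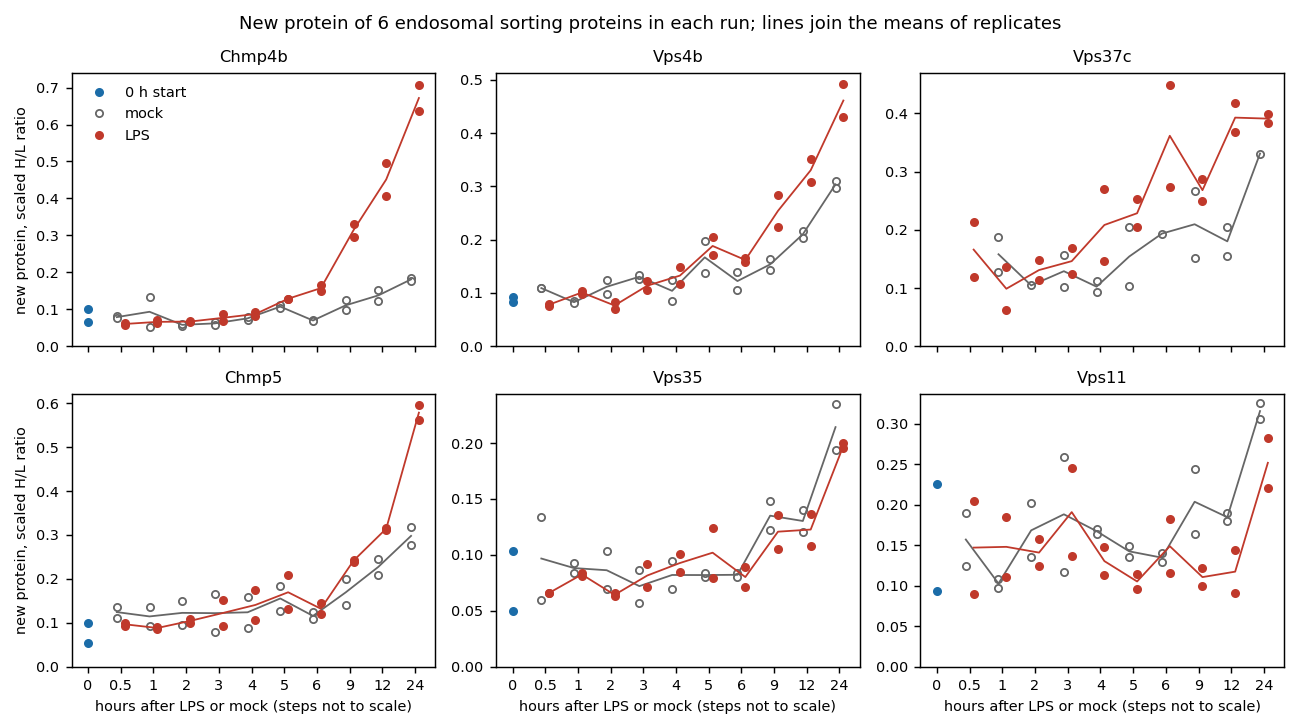
New protein (scaled H/L) of Chmp4b, Vps4b, Vps37c, Chmp5, Vps35 and Vps11 against hours after LPS or mock, with time steps not to scale; points are runs (blue at 0 h, open for mock, red for LPS) and lines join the means of replicates. The Chmp4b lines part from 6 h on (0.451 against 0.138 at 12 h), while those of the retromer scaffold Vps35 and the HOPS subunit Vps11 overlap over most times.

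**Figure D3:**
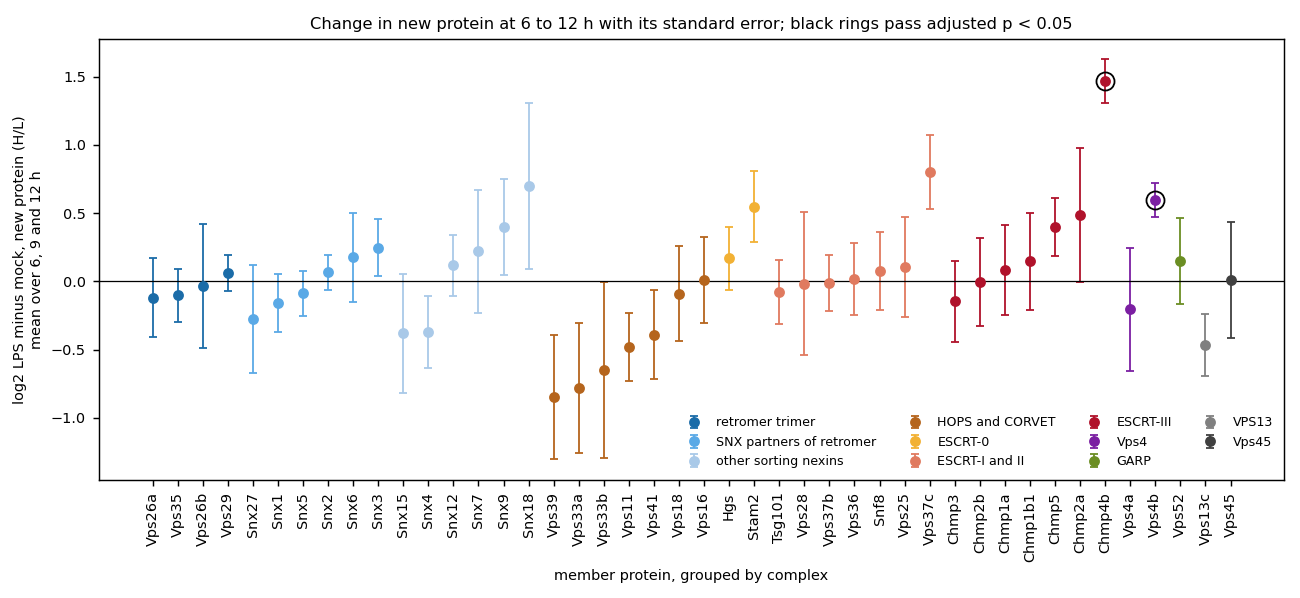
Change in new protein late, as log2(LPS/mock) ± SE, for the 44 members tested, each a column grouped by complex; black rings mark an adjusted p under 0.05. Chmp4b (1.47) and Vps4b (0.60) are ringed, and 6 of 7 HOPS and CORVET subunits lie below 0. Over all groups 1779 of 3316 lay above 0.

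In pre-existing protein late 2 of 45 members were called, where 17.1% of all groups were. Snx2 rose by 0.11 ± 0.03 (limma adjusted p = 0.0207). Its scaled M/L was 0.858, 0.910 and 0.936 after LPS and 0.799, 0.840 and 0.870 in mock, higher in 6 of 6 pairs with a small overlap. Vps16, shared by HOPS and CORVET, fell (-0.24 ± 0.08, adjusted p = 0.036). It was at 0.686, 0.783 and 0.822 after LPS and 0.823, 0.922 and 0.951 in mock, lower in all 6 pairs, and the arms did not overlap. Snx6, the dimer partner of Snx1 and Snx2, was at 0.895, 0.920 and 0.946 against 0.823, 0.855 and 0.893, without overlap, and was called with the replicate block (0.11). Neither Snx2 nor Vps16 passed without a run factor (0.27 and -0.07), from summed intensities (0.11 and -0.05), without replicate 1 (0.13 and -0.22) or without replicate 2 (0.08 and -0.25), and Vps16 did not pass with M and H centred separately (-0.20) or with the normalised ratios (-0.00).

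Total protein late rose in 3 of 44 members against 19.8% called among all groups. Total Chmp4b was 0.641, 0.810 and 1.03 after LPS and 0.575, 0.579 and 0.587 in mock, so that every LPS sample lay above every mock sample and mock cells hardly varied. The change was 0.46 ± 0.05 (limma adjusted p = 1.07e-07). Snx2 rose by 0.10 ± 0.03 (adjusted p = 0.00905), from 0.931, 0.966 and 1.00 in mock to 1.01, 1.05 and 1.07. Vps4b rose by 0.17 ± 0.06 (adjusted p = 0.0478), with 0.861, 0.982 and 1.19 after LPS and 0.829, 0.895 and 0.913 in mock, higher in 5 of 6 pairs.

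With the replicate block 5 were called, with Vps37c (0.22) rising and the HOPS subunit Vps33a (-0.28) falling in addition. Without a run factor none of the 3 was called (Chmp4b at 0.63, Snx2 at 0.27 and Vps4b at 0.33), nor without replicate 2 (0.38, 0.07 and 0.10) or from summed intensities (0.20, 0.10 and 0.20). Without replicate 1 Snx2 (0.13) and Vps4b (0.23) lost their calls, as did Vps4b with M and H centred separately (0.17), and with the normalised ratios the directions of Snx2 (-0.20) and Vps4b (-0.06) turned.

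The ratio of new to pre-existing protein, H/M, needs no run factor. Late it was higher in 3 of 44 members, against 12.4% called among all groups. Chmp4b rose by 1.47 (limma adjusted p = 8.45e-09), Vps4b by 0.43 (adjusted p = 0.0275) and Stam2 by 0.73 ± 0.24 (adjusted p = 0.0428). H/M of Stam2 was 0.205, 0.479 and 0.879 after LPS and 0.172, 0.273 and 0.435 in mock, higher in 5 of 6 pairs with overlapping ranges. With the block Vps37c was called too (0.89). Stam2 did not pass without replicate 2 (0.45), with at least 3 peptide pairs (0.61), from summed intensities (0.19) or with the normalised ratios (0.04), and Vps4b did not without replicate 1 (0.31), without replicate 2 (0.56) or from summed intensities (0.38) and turned with the normalised ratios (-0.22).

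Replacement was followed on the M share of a protein, as the slope of its log2 against time from 0.5 to 12 h, and its half-time is the time in which the M share would fall to 50% of its value. In mock cells the median slope was -0.0180 per hour for ESCRT-III and -0.0184 for the 2 Vps4 ATPases, against -0.0131 for ESCRT-0, -0.0033 for ESCRT-I and ESCRT-II, -0.0086 for the sorting nexin partners, -0.0069 for the retromer trimer and -0.0030 for HOPS and CORVET. Vps52 of GARP (-0.0203) and Vps45 (-0.0185) were single proteins. The medians were -0.0093 over members and -0.0082 over all groups. These medians are a description without a test. The 4 fastest were the late-acting ESCRT-III subunits Chmp2b (half-time 21.2 h) and Chmp2a (23.7 h), then Vps33a (39.6 h) and Chmp1a (40.2 h). The mock slope was -0.0472 ± 0.0151 per hour for Chmp2b and, barely clear of 0, -0.0252 ± 0.0124 for Vps33a (SE). The H share at 0 h was already 39.3% for Chmp2b and 31.0% for Chmp2a. Vps29 (117 h) and Vps35 (135 h) had shallow slopes, -0.0086 per hour in mock and -0.0091 after LPS for Vps29, and -0.0074 and -0.0082 for Vps35. The 4 slowest, Snx12, Vps25, Snx6 and Vps16, had slopes at or above 0 that were not clear of 0, so that no half-time can be given.

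LPS made the slope steeper in 4 of 45 members, all ESCRT or Vps4 proteins, where 13.9% of all groups were called. For Chmp4b the slope went from -0.0171 ± 0.0043 per hour in mock to -0.0726 ± 0.0043 after LPS (SE), a half-time of 58.6 h against 13.8 h (limma adjusted p = 6.5e-09). Vps37c went from 50.0 to 19.2 h (adjusted p = 0.0358). Vps4b went from 51.5 to 29.1 h (adjusted p = 0.0109), and Chmp5, an ESCRT-III subunit that binds the Vps4 cofactor Vta1, from 55.4 to 29.5 h (adjusted p = 0.0243). Leaving out replicate 1 or replicate 2, or fitting 3 to 12 h alone, ended the calls of Chmp5 (differences of -0.0171, -0.0145 and -0.0183 per hour), Vps37c (-0.0309, -0.0356 and -0.0278) and Vps4b (-0.0132, -0.0166 and -0.0147) but not that of Chmp4b. The slope difference, LPS minus mock, was above 0 in 6 of 7 HOPS and CORVET subunits and in 4 of 18 ESCRT and Vps4 proteins. Among the HOPS and CORVET subunits only Vps33a had a mock slope clear of 0 (-0.0252 ± 0.0124 per hour). For the others no replacement rate was measured that LPS could have slowed, and in Vps16 and Vps18 the mock slope was itself above 0. Over all groups it was above 0 in 1490 of 3342. The exception in the HOPS and CORVET list was Vps33b, and no HOPS subunit was called. Growth dilutes the M share as well, and the slope does not separate growth from loss.

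**Figure D4:**
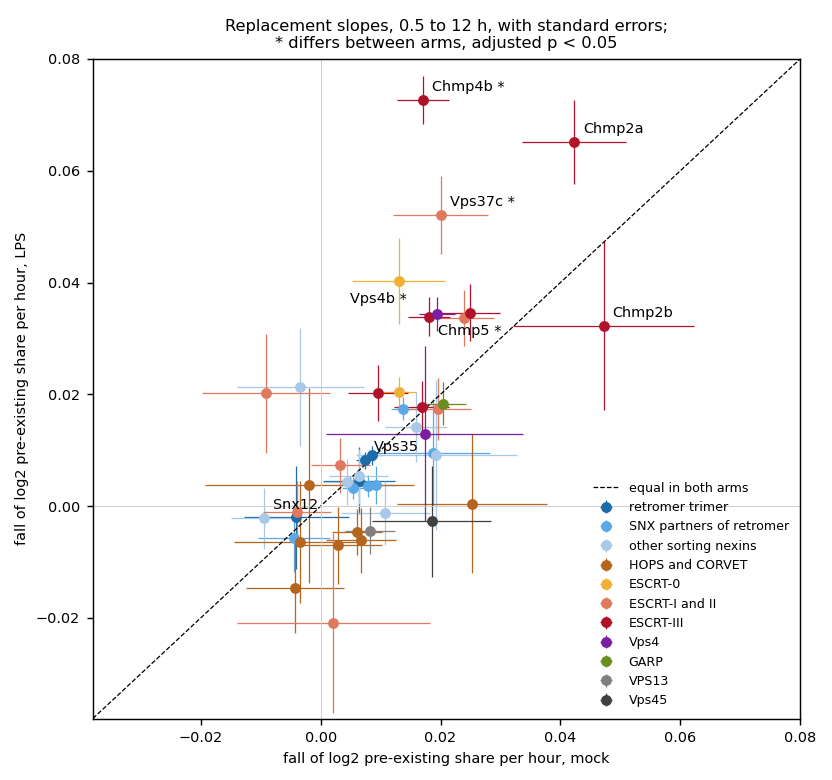
Replacement slopes of the 45 members tested, after LPS (vertical axis) against mock (horizontal axis), drawn with the sign turned as the fall of log2 M share per hour, with standard errors; the dashed line marks equal slopes and an asterisk a called difference. Chmp4b lies far above the line, with Vps37c, Vps4b and Chmp5 above it as well.

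The promoters of the 4 members whose slope difference was called are shown here. Whether these members are regulated together was not tested. Each promoter is the 250 bases before the start of the gene, from RefSeq on GRCm38.p6, read on the strand of the gene. Capitals mark a match to the NF-κB (κB) consensus, and lower case is the rest. They are chr2:154656776-154657025 (plus strand) for Chmp4b, chr19:10688485-10688734 (plus) for Vps37c, chr4:40948303-40948552 (plus) for Chmp5 and chr1:106796726-106796975 (minus) for Vps4b.
Chmp4b: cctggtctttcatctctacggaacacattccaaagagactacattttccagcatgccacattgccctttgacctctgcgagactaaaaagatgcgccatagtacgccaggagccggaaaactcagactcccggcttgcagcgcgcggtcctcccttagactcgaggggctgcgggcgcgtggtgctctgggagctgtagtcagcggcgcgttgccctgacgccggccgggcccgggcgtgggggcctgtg
Vps37c: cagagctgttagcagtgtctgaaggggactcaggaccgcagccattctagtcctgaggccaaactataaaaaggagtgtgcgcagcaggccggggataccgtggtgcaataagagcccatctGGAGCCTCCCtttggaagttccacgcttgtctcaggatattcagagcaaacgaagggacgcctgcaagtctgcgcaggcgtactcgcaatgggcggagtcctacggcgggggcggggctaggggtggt
Chmp5: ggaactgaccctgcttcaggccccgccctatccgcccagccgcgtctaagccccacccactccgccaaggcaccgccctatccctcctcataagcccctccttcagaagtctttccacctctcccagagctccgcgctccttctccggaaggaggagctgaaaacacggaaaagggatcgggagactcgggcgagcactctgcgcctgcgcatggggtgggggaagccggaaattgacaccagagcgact
Vps4b: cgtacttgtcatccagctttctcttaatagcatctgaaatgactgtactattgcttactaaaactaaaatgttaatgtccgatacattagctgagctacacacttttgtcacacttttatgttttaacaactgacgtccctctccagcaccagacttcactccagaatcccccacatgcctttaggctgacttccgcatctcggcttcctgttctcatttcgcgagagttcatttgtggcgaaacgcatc
The same window of 250 bases was used for all genes. On both strands of it 6 motifs were searched, and the single match was the κB match in Vps37c, at bases 123 to 132. Promoters were matched for 40 of 60 members. The κB consensus was in 7.01% of 27025 promoters and in 5 of the 40 (Snx6, Vps18, Vps36, Vps37c and Vps8). The interferon-stimulated response element, searched as GAAA, any 2 bases and GAAA again, was in 3.04% of all and in 2 members (Vps26a and Vps41), the GAS element TTCNNNGAA in 7.18% and in 1 (Vps53), and the E-box CACGTG, which TFE family factors bind, in 6.05% and in 6 (Snx5, Snx8, Snx18, Vps16, Vps26a and Vps33a). The AP-1 element TGANTCA (6.87% of all) and the CRE element TGACGTCA (1.62%) were in 0 of the 40. A match is a run of letters, not evidence of binding, and members whose values changed and members whose values did not were both among the matches. The GC content of the printed windows was 62.0% for Chmp4b, 58.8% for Vps37c, 63.6% for Chmp5 and 43.2% for Vps4b, with a median of 61.4% over the 40 members' promoters and 52.0% over all.

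Over 1, 2 and 3 h none of the members was called. In new protein 0 of 46 passed limma's test (0.475% of all groups did), and 1 had an unadjusted p under 0.05, Vps45 at 0.88. In pre-existing protein 0 of 46 passed (0.332% of all groups), with 0 at an unadjusted p under 0.05. At 4 and 5 h 0 of 45 passed in new protein (2.18% of all groups). There 5 had an unadjusted p under 0.05, namely Stam2 (0.87), Vps37c (0.80) and Snx6 (0.89) above 0 and Vps41, a HOPS subunit, (-1.09) and Snx12 (-0.71) below it. Before heavy label was added the measured H share at 0 h ran from 5.69% (Vps29) to 39.3% (Chmp2b) among the tested members. This limits what early H/L values can show, and the late values and slopes of some members too. At 12 h the mock H share was below the 0 h share for Vps33b (29.3% against 34.0%), Vps41 (17.5% against 21.2%) and Snf8 (18.1% against 20.0%). The same held for Vps26a (18.6% against 19.5%) and Snx6 (14.1% against 16.1%), while the other tested members with both values lay above.

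At 24 h, with 2 samples per arm, new protein was called for 1 of 43 members, against 10.2% of all groups. This was Chmp4b, with a scaled H/L of 0.637 and 0.706 after LPS and 0.186 and 0.176 in mock, a change of 1.89 ± 0.28 (limma adjusted p = 2.79e-05). The heavy form then made up 63.5% and 65.9% of Chmp4b after LPS and 33.7% and 36.5% in mock cells. The call ended without replicate 2 (1.78) and with H/L at 0 h subtracted (2.59). New Vps4b was at 0.60 (adjusted p = 0.0822) and new Chmp5 at 0.96 (adjusted p = 0.11). No retromer subunit passed, and new Vps35 was at -0.11 with a 95% interval from -0.80 to 0.58.

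Total protein at 24 h was called for 8 of 43 members, 7 higher and 1 lower, while 37.8% of all groups were called. The 4 ESCRT and Vps4 proteins were Chmp4b, Chmp2a, Vps4b and Chmp5. Chmp4b was at 1.02 and 1.09 after LPS and 0.497 and 0.490 in mock, a rise of 1.10 ± 0.08 (fold 2.14, limma adjusted p = 3.34e-10). Chmp2a was at 0.685 and 0.945 against 0.390 and 0.509 (0.85 ± 0.16, adjusted p = 0.00018). The arms did not overlap in either, which with 2 samples per arm adds no support to the calls, and the Chmp2a replicates differed widely. Vps4b was at 1.00 and 1.07 against 0.730 and 0.761 (0.48, adjusted p = 0.000548). Chmp5 was at 1.09 and 1.15 against 0.809 and 0.856 (0.43, adjusted p = 0.0106).

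The 3 sorting nexins called were all membrane-bending retromer partners. Snx2 was at 1.02 and 1.06 after LPS and 0.788 and 0.797 in mock (0.39 ± 0.05, adjusted p = 5.71e-07). Snx1 was at 1.16 and 1.20 against 0.952 and 0.961 (0.31, adjusted p = 0.00467), and Snx5 at 1.04 and 1.04 against 0.874 and 0.875 (0.25, adjusted p = 0.00448). In each of these the replicates lay close together and the arms did not overlap, again with only 2 samples per arm. Vps45 fell (-0.29 ± 0.11, adjusted p = 0.0326), at 0.989 and 1.03 after LPS and 1.20 and 1.27 in mock. With the block the sorting nexin Snx7 was also called (-0.54).

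The tested HOPS and CORVET subunits were all below 0 in total protein at 24 h (0 of 7 above 0, against 1564 of 3095 over all groups). None was called and 1 had an unadjusted p under 0.05. The median of the 7 was -0.29. That median was below 0 under each scaling tried (-0.05 without a run factor to -0.34). As late, leaving out the run factor or centring M and H separately shifts all groups alike and adds no support. The retromer trimer had a median of 0.01, with Vps35 at -0.08 (interval -0.25 to 0.10). Without a run factor none of the 8 was called (0.49 for Snx5 to 1.34 for Chmp4b, and -0.05 for Vps45). With the normalised ratios Chmp4b alone of the 8 stayed called (Chmp2a 0.34, Vps4b 0.25, Chmp5 0.52, Snx2 0.33, Snx1 0.04, Snx5 0.09), and leaving out replicate 1 or replicate 2 ended the calls of Chmp5 (0.42 and 0.43), Snx1 (0.32 and 0.29), Snx5 (0.25 and 0.25) and Vps45 (-0.30 and -0.28). Vps45 passed neither with the normalised ratios (-0.37) nor with M and H centred separately (-0.26).

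**Figure D5:**
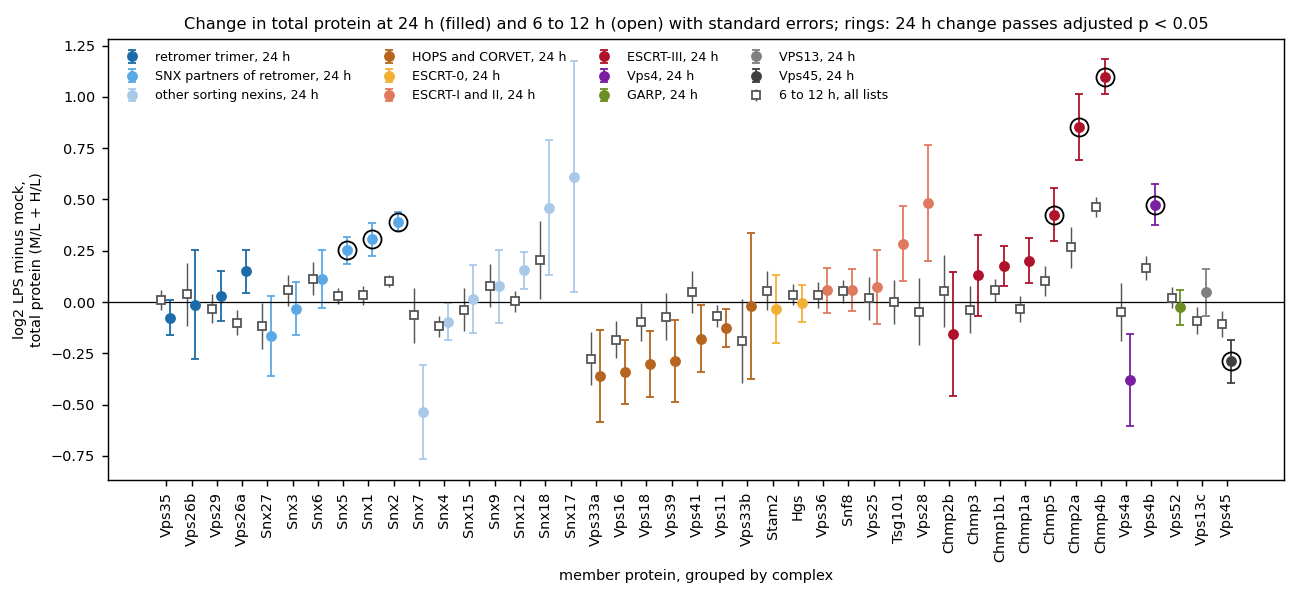
Change in total protein (M/L plus H/L), as log2(LPS/mock) ± SE, at 24 h (filled, coloured by complex) and at 6 to 12 h (open squares), with each member tested at 24 h as a column; rings mark an adjusted p under 0.05 at 24 h. Of the 8 ringed members 7 lie above 0, with Chmp4b highest (1.10), and Vps45 lies below it (-0.29).

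Pre-existing protein at 24 h, a comparison added after seeing the data, was called for 10 of 43 members, 6 higher and 4 lower, with 37.9% called among all groups. Those higher were Snx1 (0.44), Chmp2a (0.41), Vps4b (0.38), Snx2 (0.36), Snx5 (0.33) and Chmp4b (0.30). Pre-existing Snx1 was at 0.808 and 0.872 after LPS and 0.612 and 0.625 in mock (limma adjusted p = 9.74e-05). In new protein at 24 h, where none of the 3 sorting nexins was called, Snx1 was at 0.02, Snx5 at -0.02 and Snx2 at 0.51 (adjusted p = 0.172). Those lower were the HOPS and CORVET core subunits Vps33a (-0.40), Vps16 (-0.38) and Vps18 (-0.29) and the ESCRT-0 subunit Hgs (-0.21). Vps33a was at 0.611 and 0.609 after LPS and 0.769 and 0.845 in mock (adjusted p = 0.00452), and Vps18 at 0.642 and 0.583 against 0.704 and 0.797 (adjusted p = 0.00239). Vps16 was at 0.698 and 0.643 against 1.01 and 0.752. In all 3 the arms did not overlap, but with 2 samples per arm in members already called this adds no support.

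With the block Snx6 was called as well (0.17). Without a run factor none of the 10 was called and Hgs turned (0.03). Without replicate 1 the calls of Chmp2a (0.41), Chmp4b (0.29), Hgs (-0.21), Snx5 (0.33), Vps4b (0.33), Vps16 (-0.23) and Vps33a (-0.47) ended, and without replicate 2 those of Chmp2a (0.40), Hgs (-0.21), Vps16 (-0.54), Vps18 (-0.13) and Vps33a (-0.33). With the normalised ratios Vps16 (-0.09), Vps18 (-0.13) and Vps33a (-0.30) did not pass, and with M and H centred separately Hgs (-0.10), Vps16 (-0.27) and Vps18 (-0.18) did not.

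Whether the LPS effect differed between 24 h and the late window was tested as a difference of both. In new protein 0 of 42 members were called (0.803% of all groups, 0 members at an unadjusted p under 0.05). In total protein, also added after seeing the data, 5 of 42 were called, each higher at 24 h, against 17.0% of all groups. They were Chmp4b (0.63 ± 0.10, limma adjusted p = 6.02e-05), Chmp2a (0.59 ± 0.19, adjusted p = 0.035), Snx2 (0.29 ± 0.06, adjusted p = 0.000693), Snx1 (0.27 ± 0.09, adjusted p = 0.0483) and Snx5 (0.22 ± 0.08, adjusted p = 0.0487). With the block Vps4b (0.31) and Chmp5 (0.32) were called too. None of the 5 was called without a run factor, with the normalised ratios, without replicate 1 (0.21 for Snx1 to 0.63 for Chmp2a) or without replicate 2 (0.20 for Snx5 to 0.66 for Chmp4b), and Snx5 did not pass with M and H centred separately (0.24).

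A list of 50 partners outside the naming rule (WASH, COMMD and ESCRT accessory proteins, cargo receptors, adaptors and clathrin) gave few calls late. In new protein 1 of 36 rose, the ESCRT-III-like Ist1 (0.82, limma adjusted p = 0.0108), and 1 fell, the actin-nucleating WASH subunit Wash1 (-0.88, adjusted p = 0.0368), where 12.3% of all groups were called. In pre-existing protein 1 of 39 rose, Tbc1d5, a Rab7 regulator that binds retromer (0.70, limma adjusted p = 0.000454). Tbc1d5 had too few values to be tested late in new protein, total protein or H/M. The sorting receptor Sort1 (-0.42) and the clathrin heavy chain Cltc (-0.07) fell in pre-existing protein, where 17.1% of all groups were called. In total protein late, with 36 tested, Ist1 rose (0.17) and Sort1 (-0.43) and Wash1 (-0.41) fell, against 19.8% called among all groups. H/M was higher for Ist1 (0.76) and the adaptor Tollip (0.46), 2 of 36, against 12.4%. The slope was steeper for Ist1 and the Vps4 cofactor Vta1 (2 of 39), against 13.9%. The partner calls were not examined under the alternative settings. At 24 h 3 of 35 rose in total protein (Ist1 0.39, Pdcd6ip 0.17 and Eea1 0.16) and 5 fell (Commd6 -0.76, Sort1 -0.75, Wash1 -0.48, Cltc -0.33 and Commd2 -0.23), against 37.8% called among all groups.

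The LPS response was present in the same samples: Il1b, Irg1, Rsad2 and Cd40 rose in new protein late, 4 of 4. Of the dendritic and myeloid markers 7 of 7 were found (summed intensity 1729 to 1974 ppm at 0 h), though Tyrobp was at 0 in both 0 h samples, and 0 of 6 lymphocyte markers were found. Granulocyte markers (8 of 8 found, Prtn3 at 0 at 0 h) summed to 481 to 702 ppm in mock and 136 to 330 ppm in LPS samples late, and to 519 to 580 ppm and 68.1 to 77.9 ppm at 24 h. Macrophage markers (6 of 6) summed to 3354 to 4878 ppm in mock and 2478 to 4321 ppm in LPS samples late, where the ranges overlap, and to 4597 to 7233 ppm and 2634 to 3522 ppm at 24 h, where they do not. The dendritic and myeloid markers summed to 1458 to 1732 ppm in mock and 1703 to 2105 ppm in LPS samples late, and to 2174 to 2249 ppm and 1878 to 1901 ppm at 24 h. The macrophage sum is mostly Lyz2, with a mean of 3837 ppm at 0 h where the sum was 3542 to 4706 ppm. Late, only 4 of the 8 granulocyte and 5 of the 6 macrophage markers had enough values to be tested. In pre-existing protein late 3 of 4 granulocyte and 5 of 5 macrophage markers fell, where 467 of 3432 groups did. In new protein late 2 of 4 granulocyte markers fell, and of 5 macrophage markers 3 fell and 1 rose. Over all groups 58 of 3316 fell and 350 rose there. In total protein late 3 of 4 granulocyte markers fell, and of 5 macrophage markers 4 fell and 1 rose. Over all groups 318 of 3316 fell and 338 rose in total protein. The part of these markers in the results was not tested.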

How the data were processed

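The values were SILAC ratios of M and H over L from 42 trypsin runs, grouped by the labels' treatment, time and replicate number. Column names are those of MaxQuant, per the file headers; the sources used here do not give its version or settings, and mm9 is the build in the submitters' processing notes. The authors deposited each ratio as measured and normalised, per the file headers, and the un-normalised ratio was used. The deposited ratio count is the number of peptide pairs behind a ratio. The deposited intensity is the sum over a group's peptides per channel, and the iBAQ values deposited by the authors divide it by the number of theoretical peptides, per the file headers.

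Of 6266 groups 5899 were kept, after those marked as reverse, contaminant or identified by site alone. Ratios of a run were divided by the run's median sum of M/L and H/L, taken over the 2628 groups that had M/L in all runs (log2 -0.68 to 0.69). Log2 values were fitted with limma 3.58.1 (R 4.3.3) as means of 21 groups, over all protein groups, with Benjamini-Hochberg adjustment and calls under 0.05. At least 4 of 6 values per arm were needed late and early, 3 of 4 at 4 and 5 h, both samples at 24 h, and 12 of 18 for slopes. The fit was tested on simulated data. Same-numbered replicates deviated together in all 10 pairs of arms (correlation 0.25 to 0.55 over 4 measures), so the numbers pair the samples, and a fit with that block was run beside the main one. Other alternatives were scaling, deposited normalised ratios, intensities, pair counts, complete values, 0 h subtraction and leaving out a replicate. With a replicate left out, contrasts were fitted with 1 mean per time and 1 LPS effect per window. Their error then came from changes of that effect between times, so a lost call does not by itself show dependence on 1 replicate. Every member could be named; values per sample are given for called members and the retromer trimer, and otherwise the highest and lowest of a complex, the 4 fastest and 4 slowest slopes, and called partners. Some members just short of a call were described after their values were seen. The members and lists were chosen with earlier results of these data known. Tables used pandas 2.3.3 and numpy 2.4.6 under Python 3.11.15, and figures matplotlib 3.10.9.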

Additional observations from a re-analysis of the deposited data

Results flagged for a closer look

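The effect of LPS on total protein differed between 24 h and the 6 to 12 h window for 5 members, by limma's test of the difference of both effects. It was higher at 24 h by 0.63 ± 0.10 (log2, SE; adjusted p = 6.02e-05) for Chmp4b and by 0.59 ± 0.19 (adjusted p = 0.035) for Chmp2a, both ESCRT-III subunits. It was higher by 0.29 ± 0.06 (adjusted p = 0.000693) for Snx2, 0.27 ± 0.09 (adjusted p = 0.0483) for Snx1 and 0.22 ± 0.08 (adjusted p = 0.0487) for Snx5, the sorting nexins that bend membrane with retromer. The comparison was added after seeing the data and rests on 2 samples per arm at 24 h.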

How the results depend on the processing

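Chmp4b kept its call and direction in new protein late (the 9 alternatives that gave it a value), H/M late (7) and slope (6). The replicate block changed the count of called members by over 1.5 times for total protein late alone (5), added the members named in the report, and changed no other call (38 of 38 kept). With the deposited normalised ratios the members called were 7 in new, 5 in pre-existing, 6 in total protein and 5 in H/M late, 4 early, 1 at 4 and 5 h, 1 in total protein at 24 h and 0 in the total 24 h minus late difference (2 at an unadjusted p under 0.05); reversed there were Vps4b in new (-0.17), total (-0.064) and H/M (-0.22) and Snx2 in total protein late (-0.20). Without a run factor 0 members were called in pre-existing and total protein late, total and pre-existing protein at 24 h and the total difference (0, 1, 2, 0 and 0 at an unadjusted p under 0.05), with Hgs reversed in pre-existing protein at 24 h (0.026), and the all-group median of total protein at 24 h moved from 0.01 to 0.25. Where no value is missing, this setting moves every group by the same amount. It also raised the error, from 0.03 to 0.24 (SE) for Snx2 in pre-existing protein late. The log2 run factor was 0.69 in 1 late LPS run, replicate 2 at 12 h, where the other late runs of replicate 2 lay from -0.05 to 0.08. From summed intensities 1 was called in new protein and H/M late and 0 in pre-existing and total protein (2 each unadjusted). With H/L at 0 h subtracted 1 was called late, Vps4b (Chmp4b could not be tested there), and 0 at 24 h (1 unadjusted), and over 3 to 12 h 2 slopes were called. Leaving out 1 replicate left 1 sample per group. Contrasts were then fitted with 1 mean per time and 1 LPS effect per window. The error of that fit came from changes of the LPS effect between the times of a window, not from replicates. A call that ended there thus does not by itself show dependence on 1 replicate. Among slopes, fitted as before on fewer runs, 1 was called either way. Beyond the run factors, the fewer samples and changed fit without a replicate and the fewer groups tested after subtraction, the cause of these shifts was not tested. Few peptide pairs limit HOPS and CORVET and several ESCRT proteins as well, with a late median of 4 for Vps37c and 5.5 for Stam2. H signal at 0 h limits early values and, for members such as Vps26a, Vps41 and Snx6, late values and slopes too.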
